A study of Mus musculus with 12 samples.

Results

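Expression of 10 genes of the Notch pathway was compared between angiogenic and non angiogenic tumor islets of Rip1Tag2 mice: the 4 receptors Notch1, Notch2, Notch3 and Notch4, the 4 ligands Dll1, Dll4, Jag1 and Jag2, and the 2 target repressors Hey1 and Hes1. They were taken by gene symbol from the 19938 genes that the array represents by at least 1 probe cluster carrying a single symbol. Each of the 10 genes had exactly 1 such cluster. The 10 genes were chosen with earlier results of these data known, so their counts are not those of a blind choice. The 12 Affymetrix mouse arrays were labelled as pooled islets, 6 arrays of the angiogenic and 6 of the non angiogenic class. The islets of both classes were isolated from 8-week-old Rip1Tag2 mice on the C57BL/6 background, in which the rat insulin promoter drives SV40 T antigen in beta cells, and they were sorted by appearance before RNA extraction. Both classes therefore carried the oncogene, and no islets of wild-type mice were analysed here. How many mice or islets made up a pool, and whether the arrays of a class came from separate pools, was not given in the sources used here. A legend of the study describes array measurements from a pair of independent profiling experiments, without naming the arrays of each. The p-values therefore measure the spread between these arrays, with n = 6 counting arrays, and part of that spread may be technical. The values are log2 signals from robust multi-array averaging (RMA), on which a difference of 1 is a doubling, and a level can be compared between arrays but not between genes.

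Notch signalling passes between touching cells. A Delta-like or Jagged ligand on 1 cell binds a Notch receptor on its neighbour, the receptor is cut by an ADAM protease and then by gamma-secretase, and the freed intracellular domain joins RBPJ and Mastermind in the nucleus to switch on repressors of the Hes and Hey families. In growing vessels the pathway is known for restraining tip cell formation through Dll4, for arterial identity and for the coating of vessels by pericytes and smooth muscle cells. In the developing pancreas it is known for holding progenitors back from the endocrine fate through Hes1.

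Array medians lay between 7.30 and 7.38. In both classes the arrays of replicates 1 to 3 stood apart from those of replicates 4 to 6 along the first principal component, which held 41.5% of the variance, and the second component (19.3%) separated the islet classes. The labels do not give a set, and whether the sets are the independent experiments was not given in the sources used here, so results are also given for replicates 1 to 3 and replicates 4 to 6 alone and from a fit with the set as a block. The beta cell hormones, named after their values were seen, had similar mean levels in both classes. Ins2 (insulin) was at 13.21 in angiogenic and 13.22 in non angiogenic islets. Iapp (amylin) was at 13.56 in angiogenic and 13.61 in non angiogenic islets. Of 9 beta cell markers measured, 0 were higher and 1, Ucn3, was lower in angiogenic islets (difference -0.25, limma adjusted p = 0.0285). This call was lost without any 1 of angiogenic replicates 1, 2, 5 or 6 or non angiogenic replicates 4, 5 or 6 (adjusted p up to 0.0677). It was also lost in replicates 1 to 3 alone. With the set as a block, 0 of the 9 were higher and 3 were lower, against 5.88% and 2.74% of all genes.

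Of the 10 Notch pathway genes, 4 were higher in the angiogenic class at a limma p adjusted over all genes of under 0.05, namely the ligand Jag1 and the receptors Notch3, Notch2 and Notch4, and 0 were lower. Across all genes 3.55% were higher and 0.948% were lower in angiogenic islets by the same test. The median difference of the 10 Notch genes was 0.26, beside -0.02 over all genes. In 9 of the 10 the difference was positive, over 12 arrays (40.1% of all genes) and in both replicate sets (23.8%). In replicates 1 to 3 alone 3 of the 10 passed (Jag1, Notch3 and Notch2), beside 2.37% of all genes higher and 0.331% lower, and in replicates 4 to 6 alone 4 passed (Jag1, Notch3, Notch4 and Hey1), beside 3.11% higher and 0.737% lower. With the replicate set as a block, 7 of the 10 were higher and 0 were lower, against 5.88% and 2.74% of all genes. In whole islets, more cells of a type and more RNA per cell cannot be told apart.

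**Figure D1:**
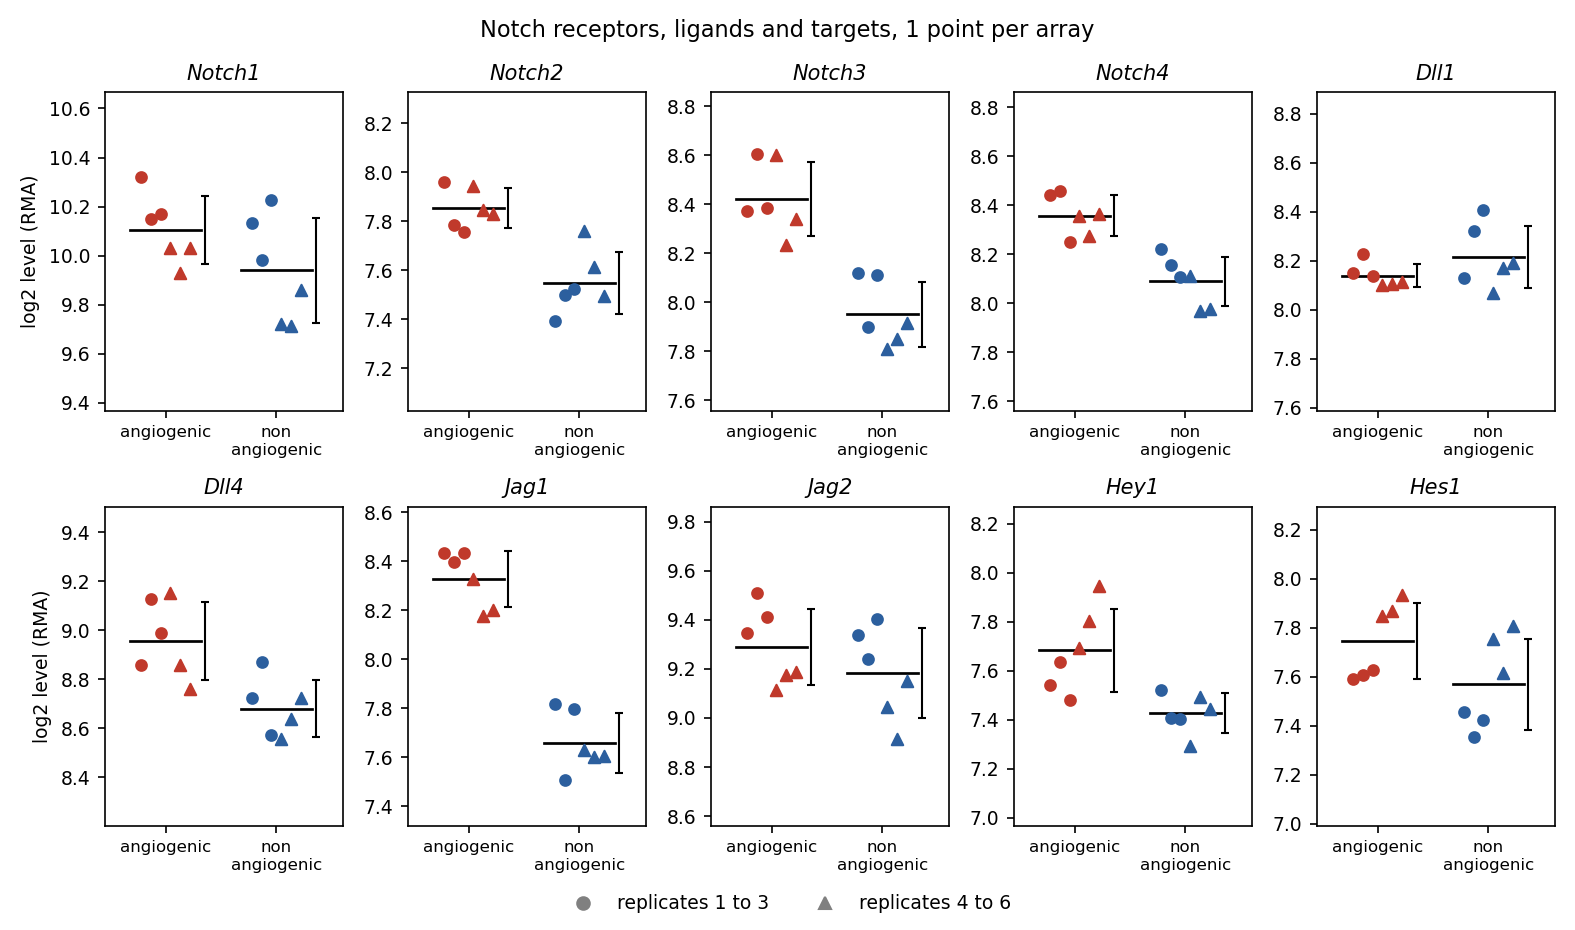
Log2 level (RMA) of the 10 Notch genes, 1 point per array, with angiogenic islets (red) left of non angiogenic islets (blue) in each panel, the first replicate set as circles, the second as triangles, a bar at each group mean and an error bar of 1 SD (n = 6 each). Jag1, Notch3 and Notch4 show no overlap between the 6 angiogenic and the 6 non angiogenic arrays.

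Jag1, a Jagged ligand made by endothelial cells and by the mural cells around vessels, had the largest difference of the 10 genes. Its level was lowest at 8.18, with a median of 8.36 and a highest value of 8.43, in angiogenic islets, against 7.51, 7.62 and 7.82 in non angiogenic islets. The groups did not overlap, which was the case for 3 of the 10 Notch genes and for 2.85% of all genes with the angiogenic arrays above, and for 0 of the 10 and 0.923% of all genes with them below. The mean was 8.33 ± 0.11 in angiogenic and 7.66 ± 0.12 in non angiogenic islets (SD, n = 6 each), a difference of 0.67 (SE 0.07, 95% interval 0.52 to 0.81) or 1.59-fold, with a limma adjusted p of 2.57e-05. Jag1 also passed within each set, by 0.71 in replicates 1 to 3 (adjusted p = 0.00215) and by 0.62 in replicates 4 to 6 (adjusted p = 9.93e-04). It stayed past the threshold in each of the 26 alternative settings, and 99.3% of all genes had a smaller difference.

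The other Jagged ligand, Jag2, did not pass. Its values ran from 9.11 through a median of 9.27 to 9.51 in angiogenic islets and from 8.91 through 9.20 to 9.40 in non angiogenic islets, so that the groups overlapped widely. The difference was 0.11 (SE 0.09, 95% interval -0.08 to 0.30; limma adjusted p = 0.69), with 0.09 in replicates 1 to 3 and 0.12 in replicates 4 to 6. Jag2 varied more between the replicate sets than between the islet classes, with a set effect of -0.28 (SE 0.05), replicates 4 to 6 minus replicates 1 to 3 (adjusted p = 8.05e-04). A set effect of this kind was called for 36.9% of all genes.

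Dll4, the Delta-like ligand of sprouting and arterial endothelium, lay near the threshold. In angiogenic islets its lowest, median and highest levels were 8.76, 8.92 and 9.15, and in non angiogenic islets 8.56, 8.68 and 8.87. The ranges overlapped between the lowest angiogenic and the highest non angiogenic arrays. The difference of 0.28 (SE 0.08, 95% interval 0.11 to 0.44), 1.21-fold, had a limma adjusted p of 0.0553. Dll4 passed with the set as a block (adjusted p = 0.0235), without angiogenic replicate 6 (0.0335), without non angiogenic replicate 2 (0.0321) and when dim genes were left out (0.0478). The difference was of similar size in replicates 1 to 3 (0.27) and in replicates 4 to 6 (0.29), where it did not pass alone (adjusted p = 0.20 and 0.18).

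Dll1, a Delta-like ligand of developing tissues and arteries, was the 1 gene of the 10 with a negative difference. It lay between 8.10 and 8.23 (median 8.12) in angiogenic islets, inside the span of 8.07 to 8.41 (median 8.18) in non angiogenic islets. The difference was -0.08 (SE 0.06, 95% interval -0.20 to 0.05; limma adjusted p = 0.65), so that a rise above 0.05 was outside the interval. Among the ligands, then, 1 of 4 passed, and the differences of Jag1 and Dll1 had intervals that did not overlap.

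Notch3, the receptor of vascular smooth muscle cells and pericytes, had the largest difference among the receptors. Its lowest, median and highest levels were 8.23, 8.38 and 8.61 in angiogenic islets, against 7.81, 7.91 and 8.12 in non angiogenic islets, with no overlap between the groups. The mean was 8.42 ± 0.15 in angiogenic and 7.95 ± 0.13 in non angiogenic islets (SD, n = 6 each). Notch3 was higher by 0.47 (SE 0.08, 95% interval 0.31 to 0.64), or 1.39-fold, with a limma adjusted p of 0.00173. It passed within replicates 1 to 3 (0.41, adjusted p = 0.0431), within replicates 4 to 6 (0.53, adjusted p = 0.0139) and in each of the 26 alternative settings.

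Notch2, a broadly expressed receptor, ran from 7.76 through a median of 7.84 to 7.96 in angiogenic islets and from 7.40 through 7.51 to 7.76 in non angiogenic islets. The ranges touched at angiogenic replicate 3 and non angiogenic replicate 4, which belong to different replicate sets, and within either set the groups did not overlap (9.35% of all genes had no overlap and a higher angiogenic group in replicates 1 to 3, 10.7% in replicates 4 to 6 and 4.89% in both). The difference was 0.31 (SE 0.06, 95% interval 0.17 to 0.44), or 1.24-fold, with a limma adjusted p of 0.00938. It was 0.36 in replicates 1 to 3 (adjusted p = 0.0384) and 0.25 in replicates 4 to 6, where it did not pass alone (adjusted p = 0.13).

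Notch4, the receptor largely restricted to endothelium, was between 8.25 and 8.46 (median 8.36) in angiogenic islets and between 7.97 and 8.22 (median 8.11) in non angiogenic islets. The groups did not overlap. The difference was 0.27 (SE 0.06, 95% interval 0.15 to 0.39), or 1.20-fold, with a limma adjusted p of 0.0129, and it was 0.22 in replicates 1 to 3 (adjusted p = 0.19 alone) and 0.31 in replicates 4 to 6 (adjusted p = 0.0306). A further 6 clusters carry Notch4 together with a second symbol and were not used.

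Notch1, the founding receptor of the family and active in endothelium among many tissues, did not pass. It had its lowest, median and highest levels at 9.93, 10.09 and 10.32 in angiogenic islets and at 9.71, 9.92 and 10.23 in non angiogenic islets. The difference was 0.16 (SE 0.09, 95% interval -0.04 to 0.37; limma adjusted p = 0.49), with 0.10 in replicates 1 to 3 and 0.23 in replicates 4 to 6. Like Jag2, Notch1 was lower in replicates 4 to 6 than in replicates 1 to 3, by a set effect of -0.28 (SE 0.05, adjusted p = 0.00138), and with the set as a block its difference between islet classes still did not pass (adjusted p = 0.0821).

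**Figure D2:**
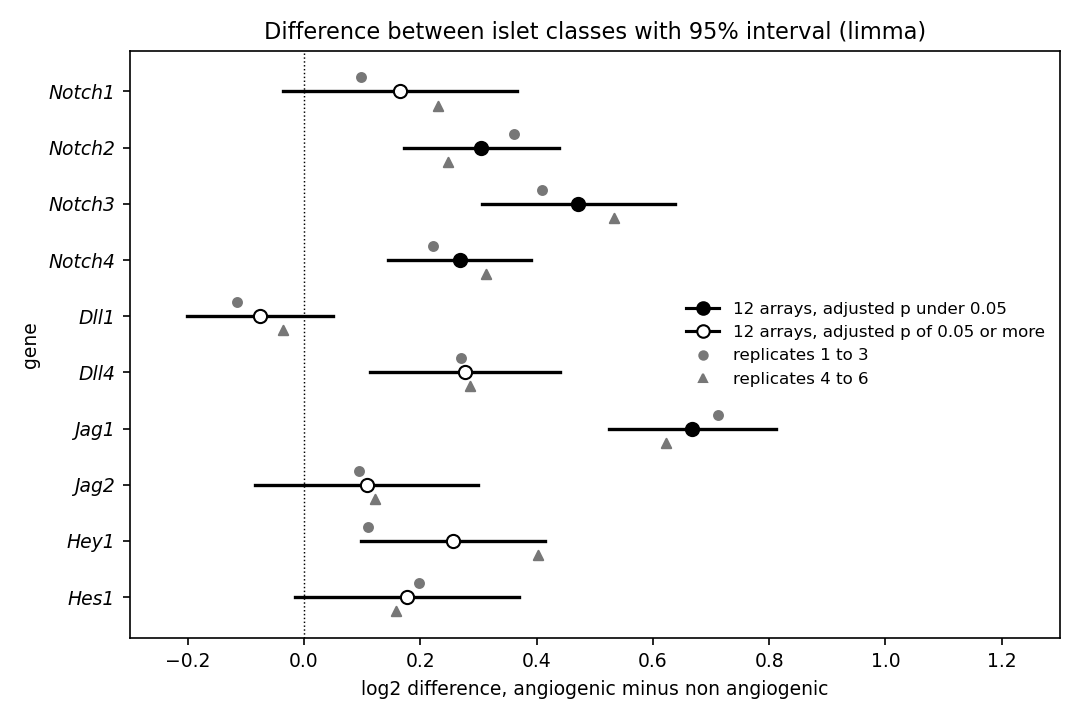
Log2 difference, angiogenic minus non angiogenic islets, for the 10 Notch genes over 12 arrays with the 95% interval of the limma fit, beside the differences within replicates 1 to 3 and within replicates 4 to 6. Jag1 (0.67) and Notch3 (0.47) lie farthest to the right and Dll1 (-0.08) lies left of 0.

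Hey1, a repressor switched on by Notch in endothelial cells, had levels of 7.48, 7.67 and 7.94 (lowest, median, highest) in angiogenic islets, against 7.29, 7.43 and 7.52 in non angiogenic islets. The groups overlapped at the low end of the angiogenic arrays. The difference was 0.26 (SE 0.07, 95% interval 0.10 to 0.41), 1.19-fold, and missed the threshold (limma adjusted p = 0.0673). It was 0.11 in replicates 1 to 3 (adjusted p = 0.48) and 0.40 in replicates 4 to 6, where it passed alone (adjusted p = 0.0289), and the test of that difference between sets did not pass (0.29, SE 0.11, adjusted p = 0.74). Hey1 also passed with the set as a block (adjusted p = 0.0222) and without angiogenic replicate 3 (0.0307).

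Hes1, the repressor that restrains endocrine differentiation in pancreatic progenitors, ran from 7.59 through a median of 7.74 to 7.93 in angiogenic islets and from 7.35 through 7.54 to 7.81 in non angiogenic islets. Over all 12 arrays the groups overlapped and the difference of 0.18 (SE 0.09, 95% interval -0.01 to 0.37) did not pass (limma adjusted p = 0.41). Hes1 was 0.29 (SE 0.04) higher in replicates 4 to 6 than in replicates 1 to 3 (adjusted p = 1.82e-04), and within either set the angiogenic arrays lay above the non angiogenic arrays, by 0.20 in replicates 1 to 3 and 0.16 in replicates 4 to 6. With the set as a block the difference passed (adjusted p = 0.0161). For none of the 10 genes did the test of a different effect in the 2 replicate sets pass (adjusted p from 0.74 to 0.99), a test that called 1 gene, or 0.00502%, of all genes.

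The promoter sequences below are those of the 3 genes whose groups did not overlap, shown because they rose together. They are the 250 bases before the start site, printed 5′ to 3′ on the gene's own strand from RefSeq on build GRCm38.p6, at chr2:137116521-137116770 (minus strand) for Jag1, chr17:32166891-32167140 (minus strand) for Notch3 and chr17:34564045-34564294 (plus strand) for Notch4. Capitals mark CAGGAA, a core recognised by ETS factors of endothelial cells, on either strand.
Jag1: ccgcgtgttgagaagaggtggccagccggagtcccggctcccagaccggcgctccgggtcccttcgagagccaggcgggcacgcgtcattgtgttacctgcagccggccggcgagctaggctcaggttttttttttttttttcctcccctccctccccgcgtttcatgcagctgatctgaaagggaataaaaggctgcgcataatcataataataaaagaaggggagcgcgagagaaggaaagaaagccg
Notch3: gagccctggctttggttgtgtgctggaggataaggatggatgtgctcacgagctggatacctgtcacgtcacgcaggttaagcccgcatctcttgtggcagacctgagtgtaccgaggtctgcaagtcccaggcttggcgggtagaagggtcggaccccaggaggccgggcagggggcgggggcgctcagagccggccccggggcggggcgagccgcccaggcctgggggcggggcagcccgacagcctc
Notch4: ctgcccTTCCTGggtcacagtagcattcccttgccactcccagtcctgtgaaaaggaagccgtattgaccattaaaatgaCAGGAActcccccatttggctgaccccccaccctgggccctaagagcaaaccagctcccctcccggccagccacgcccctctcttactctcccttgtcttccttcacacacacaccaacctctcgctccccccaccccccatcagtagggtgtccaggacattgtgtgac

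Of the 10 genes, 8 were matched to windows of 250 bases before to 50 after the start. These 8 were the receptors and ligands. The target repressors Hey1 and Hes1 had no window in the source used and were not searched. CAGGAA stood at positions -244, -170 and 2 from the start of Notch4 and at -88 in Notch1, and 30.6% of 32851 RefSeq windows of this length held it. TGGGAA, a core of the sequence bound by RBPJ, was searched on both strands and found in 0 of the 8 genes, beside 25.6% of all windows. The other ETS core, CCGGAA, and TATAAA, a form of the TATA box, were likewise in 0 of the 8, beside 14.9% and 13.6% of all windows. Only exact matches were searched, so other forms of the TATA box were not counted. The 8 genes had 9 windows. These were 55.67% (Jag1) to 86.0% (Jag2) G and C, beside a median of 52.67% over all RefSeq windows. Whether this content bears on the motif counts was not tested. No motif overlapped another in these windows.

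The rest of the pathway was followed in 65 further genes measured, in which 3 were higher and 0 lower in angiogenic islets, a share near the 3.55% of all genes that were higher, and the median difference was 0.01. The 3 were Heyl, Egfl7 and Mfap5. Heyl, a Hey family repressor known as a Notch3 target in smooth muscle cells, was the 1 gene past the threshold among 11 other Hes, Hey and feedback targets (median difference of the list -0.01). Its lowest, median and highest levels were 7.95, 8.15 and 8.46 in angiogenic islets, against 7.47, 7.61 and 7.77 in non angiogenic islets, with no overlap. Heyl was higher by 0.57 (SE 0.08, 95% interval 0.40 to 0.74), or 1.48-fold, with a limma adjusted p of 4.83e-04, and by 0.54 in replicates 1 to 3 and 0.59 in replicates 4 to 6. Hey2, Nrarp and Bhlhe40, all chosen after their values were seen, did not pass. Hey2, a relative of Hey1 in arterial endothelium, differed by 0.21 (95% interval -0.02 to 0.43, adjusted p = 0.41). Nrarp, a feedback inhibitor, differed by 0.21 (adjusted p = 0.0941, and 0.0245 with the set as a block).

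Of 9 other ligands and ligand-like proteins 2 were higher and 0 lower (median difference 0.15). Egfl7, a secreted endothelial protein that binds Notch receptors, ran from 9.23 through 9.31 to 9.60 in angiogenic islets and from 8.85 through 9.04 to 9.16 in non angiogenic islets, without overlap. It was higher by 0.34 (SE 0.07), 1.26-fold (limma adjusted p = 0.0160), but not in replicates 1 to 3 alone (adjusted p = 0.14). Mfap5, a microfibril protein that binds Jag1 and Notch1 and that also stands in the fibroblast list used here, was 9.35, 9.57 and 9.65 in angiogenic islets, against 7.81, 8.07 and 8.25 in non angiogenic islets. The difference of 1.52 (SE 0.08), 2.87-fold, had a limma adjusted p of 4.51e-08. Dlk1, a non-canonical ligand of endocrine and mesenchymal cells, differed by 0.40 (SE 0.11) and did not pass (adjusted p = 0.0597), although it did with the set as a block (0.0308), without angiogenic replicate 3 (0.0304) and without non angiogenic replicate 4 (0.0477).

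The shared machinery of the pathway had 0 genes past the threshold in either direction. Of 7 glycosyltransferases, which tune ligand binding, Lfng had the largest difference, 0.23 (SE 0.08, limma adjusted p = 0.18). Of 9 cleavage genes, Adam17, a receptor protease, differed most, by 0.16 (SE 0.10, adjusted p = 0.53). Of 15 genes of ligand endocytosis and receptor turnover, Neurl1b, a ubiquitin ligase for ligands, differed most, by 0.28 (SE 0.10, adjusted p = 0.15). Of 14 genes of the nuclear complex, Maml3, a Mastermind co-activator, differed most, by -0.15 (SE 0.10, adjusted p = 0.59). Rbpj, the DNA-binding partner of all Notch receptors, differed by 0.03 with a 95% interval of -0.20 to 0.26 (adjusted p = 0.96). The median difference of these lists lay between -0.02 and 0.06. With the set as a block Lfng (adjusted p = 0.0305), Neurl1b (0.0145) and Dtx4, a Deltex ubiquitin ligase (0.21, adjusted p = 0.0264, against 0.0593 without the block), passed. Dtx4 also passed without non angiogenic replicate 5 (0.0309).

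Of 11 arterial genes, the class that Notch signalling is known to favour in endothelium, 5 were higher and 0 lower in angiogenic islets (all genes 3.55% higher), with a median difference of 0.27. General endothelial markers rose more, with 12 of 15 higher and a median difference of 0.43. Sox18 stands in both lists, and a rise particular to arterial genes was not tested. The arterial count was 3 without angiogenic replicate 2, without angiogenic replicate 4 or without non angiogenic replicate 5, and 2 in replicates 1 to 3 alone. Unc5b, a netrin receptor of arterial and tip cells, was higher by 0.53 (SE 0.08), 1.45-fold (limma adjusted p = 9.24e-04). Efnb2, the arterial ephrin, ran from 8.65 through 8.75 to 8.82 in angiogenic islets and from 8.25 through 8.40 to 8.64 in non angiogenic islets, and was higher by 0.32 (SE 0.07), 1.25-fold (adjusted p = 0.00899). The transcription factor Sox7 was higher by 0.36 (SE 0.08, adjusted p = 0.0166). Epas1, a hypoxia-inducible factor, was higher by 0.35 (SE 0.08, adjusted p = 0.0260), a call lost without any 1 of angiogenic replicates 2, 4 or 6 or non angiogenic replicates 5 or 6 (adjusted p up to 0.0647) and after quantile normalization (0.0566). Gja4, a gap junction protein, was higher by 0.24 (SE 0.06, adjusted p = 0.0333), a call lost without any 1 of angiogenic replicates 1 to 4 or non angiogenic replicates 1, 3, 4 or 5 (adjusted p up to 0.0856), with array weights (0.0678) and in either set alone. Sox7, Epas1 and Efnb2 did not pass in replicates 1 to 3 alone. Of 6 endocrine genes that Hes1 is known to restrain in pancreas development, 0 passed. The largest difference was that of Neurog3, the endocrine progenitor factor that Hes1 represses, at -0.32 (SE 0.09, 95% interval -0.51 to -0.12, limma adjusted p = 0.0729, and 0.0151 with the set as a block). Neurog3 was dim, at a mean level of 6.32 with 26.9% of all genes dimmer. Its difference ran from -0.36 to -0.24 with 1 array left out, and a link to Hes1 was not tested.

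**Figure D3:**
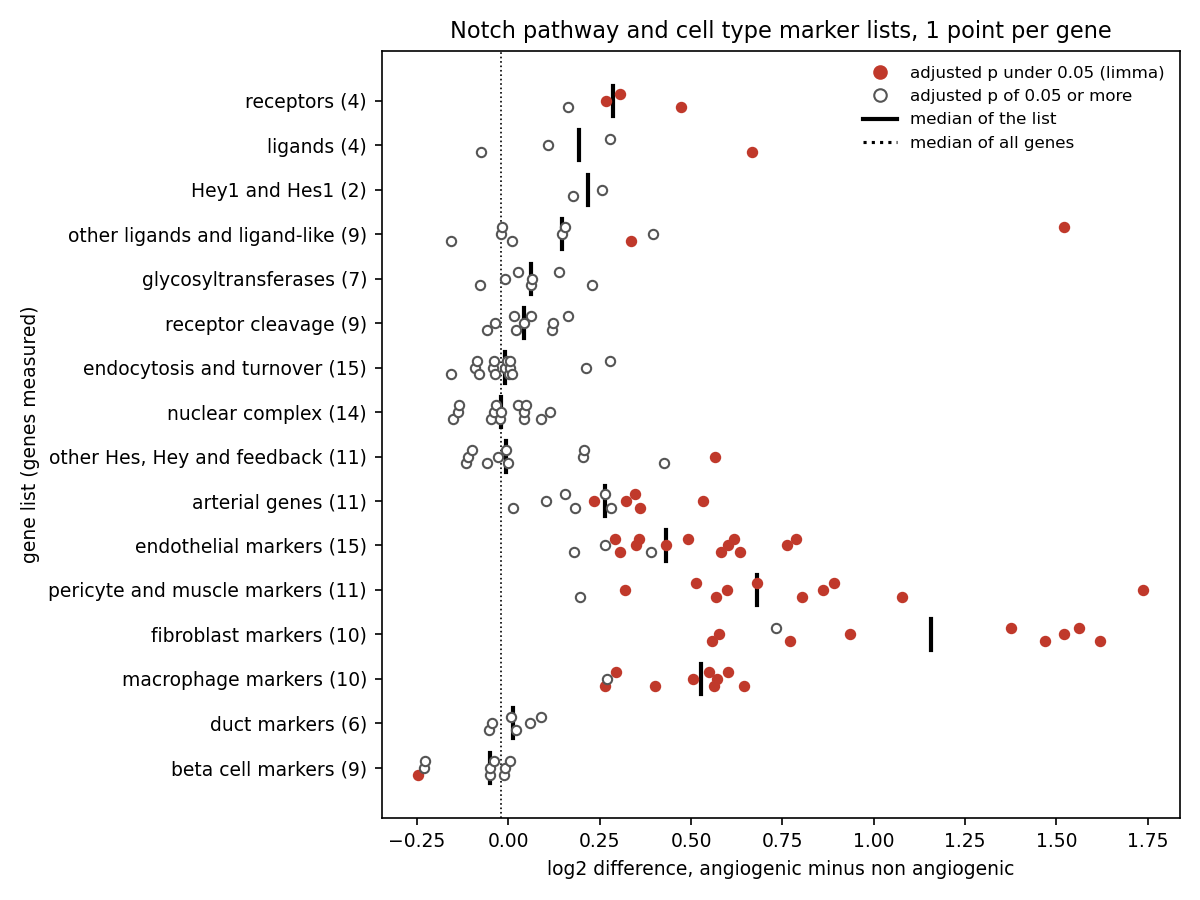
Log2 difference, angiogenic minus non angiogenic islets, of each gene (1 point per gene) in the lists of Notch pathway genes and cell type markers, with the list median as a bar and the median of all genes as a dotted line; filled red points passed the limma threshold, and acinar and endocrine genes are not drawn. The shared machinery of the pathway centres near 0, and the endothelial, pericyte, fibroblast and macrophage markers lie to the right.

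Markers of the cells in and around vessels were also higher in angiogenic islets, as were the 4 Notch genes that passed. Of 15 endothelial markers 12 were higher, 0 were lower and the median difference was 0.43, with a mean level of the list between 9.38 and 9.56 in angiogenic islets and between 8.90 and 9.09 in non angiogenic islets. Of 11 pericyte and smooth muscle markers 10 were higher (median 0.68; list level 8.40 to 8.78 in angiogenic and 7.73 to 7.92 in non angiogenic islets). Of 10 fibroblast markers 9 were higher (median 1.16; 9.35 to 9.65 in angiogenic and 8.12 to 8.57 in non angiogenic islets), and of 10 macrophage markers 9 were higher (median 0.53; 8.89 to 9.23 in angiogenic and 8.40 to 8.67 in non angiogenic islets). These 4 lists did not overlap between the groups, and the part of these cells in the Notch values was not tested. The difference of Jag1 (0.67) was above the endothelial median and just below the pericyte and smooth muscle median. Those of Heyl (0.57) and Notch3 (0.47) lay between these 2 medians, and those of Notch2 (0.31), Notch4 (0.27) and the other Notch genes were below both.

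By gene, the largest endothelial differences were those of Cd34 (0.79), the junction cadherin Cdh5 (0.76), endoglin Eng (0.63) and the angiopoietin receptor Tek (0.62), and the largest perivascular ones were those of smooth muscle actin Acta2 (1.74), the receptor Pdgfrb (1.08), Myl9 (0.89) and Tagln (0.86). Those of the fibroblast list were of the matrix genes Postn (1.62), Col1a2 (1.47) and Col1a1 (1.56) beside Mfap5, and those of the macrophage list were of Adgre1 (0.65), Mrc1 (0.60), Csf1r (0.56) and Fcer1g (0.57). Muc1 differed most of the duct markers (0.09) and Cpa1 of the acinar markers (0.73). Of the duct markers measured (6) and the acinar markers measured (9), 0 passed in either direction, and the acinar level varied from 7.59 to 10.42 in angiogenic islets and from 7.48 to 11.34 in non angiogenic islets. After the mean of each class within each replicate set was removed, the correlation over 12 arrays with the pericyte and smooth muscle list was 0.76 for Notch3, 0.51 for Notch4, 0.37 for Jag1 and 0.35 for Notch2, and over the 10 Notch genes it was lowest for Hey1 (-0.31). With the endothelial list it was 0.61 for Notch3, 0.36 for Notch4, -0.0076 for Jag1 and -0.38 for Notch2, and highest for Dll4 (0.77). Lists of other cells gave values of similar size, as Notch3 had 0.64 with the macrophage and 0.55 with the fibroblast list. Notch2 had its highest value with the duct list (0.61). Over the 7 marker lists the highest values were those of Hes1 (0.87) and Jag2 (0.86) with the beta cell list, and Jag1 had its highest value with the fibroblast list (0.65). These are descriptions over 12 arrays and 7 lists, with no test.

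**Figure D4:**
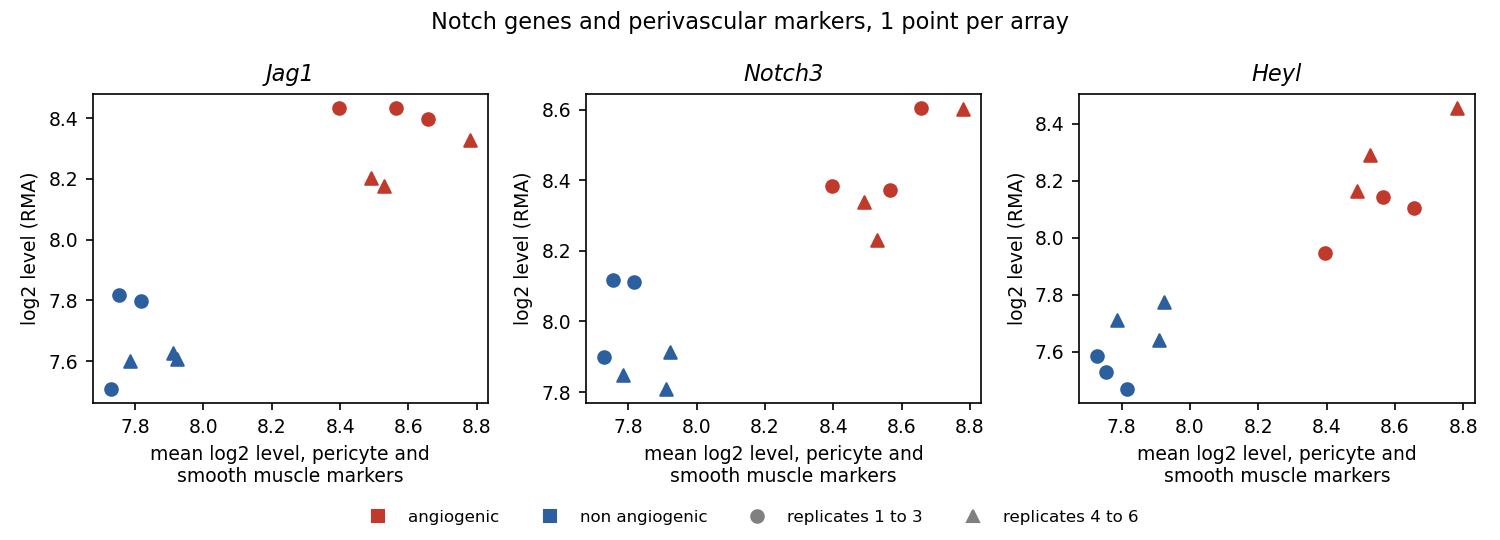
Log2 level (RMA) of Jag1, Notch3 and Heyl against the mean log2 level of 11 pericyte and smooth muscle markers, 1 point per array, with angiogenic islets in red, non angiogenic islets in blue, circles for the first replicate set and triangles for the second. The angiogenic arrays lie between 8.40 and 8.78 on the horizontal axis and the non angiogenic arrays between 7.73 and 7.92. The 2 classes overlap on neither axis, so their separate clusters in each panel follow from the genes and list drawn.

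The genes most like each of the 4 that passed, by Pearson correlation over the 12 arrays, were as follows. Jag1 was closest to Lamc1 (r = 0.98), Tmem45a (0.98) and Adamts12 (0.97). Notch3 was closest to Ecscr (0.97), Nid2 (0.97) and the pericyte marker Cspg4 (0.97). Notch4 was closest to Nrp2, Myo7a and Unc5b, each at 0.95, and Notch2 to Cryab (0.96), Gna12 (0.94) and Igsf6 (0.94). Each of these 12 genes was itself higher in angiogenic islets, so that the difference between the classes is part of every such r. With the mean of each class within each set removed, r lay between 0.65 (Lamc1 with Jag1) and 0.86 (Ecscr with Notch3). The genes were picked by r over the same 12 arrays, so these values are partly set by that choice.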

How the data were processed

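Total RNA of pooled islets was hybridized to 12 Affymetrix mouse gene arrays. The deposited values are log2 expression levels per probe cluster, which the authors made with Affymetrix Expression Console and RMA per the submitters' processing notes (versions and genome build not given in the sources used here). RMA removes background, sets all arrays to a common distribution and summarises probes, which hides a global shift of signal. Of 35556 clusters, 21789 carried a single symbol, 1621 several and 12146 none in the platform annotation. Only single-symbol clusters were used, and for the 999 genes with several the brightest by mean over all arrays stood for the gene. No low-level filter was set. Columns of no sample numbered 0.

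Angiogenic and non angiogenic islets (6 arrays each) were compared with lmFit and eBayes in limma 3.58.1 (R 4.3.3), in a two-sided test whose p-values were adjusted by Benjamini-Hochberg across the 19938 genes, and called at under 0.05. The effect of the replicate set (1 to 3 against 4 to 6) and its interaction with class were fitted in the same way. The class difference and the interaction were first run on simulated data. The interaction added there was larger than that of any Notch gene, so the check does not give the power at their size. No depth exists for arrays, and their number limits the precision.

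Named are the 10 Notch genes, in each list the genes past the threshold (at most 4 by size) or else the largest difference, and for each Notch gene that passed the 3 most correlated genes. Rbpj, Hey2, Nrarp, Bhlhe40, Dlk1, Dtx4, Gja4, Ins2 and Iapp were added after their values were seen. The Notch genes and the lists were chosen with earlier results of these data known. Some genes of the pathway are not reported here. Alternatives were the t-test that the methods name for comparing a pair of groups and other variance and weighting options of limma. Others were median centring, quantile normalization, a filter on dim genes, other uses of several clusters, blocks, single sets and leaving out each array. The study selected its array genes with BRB-ArrayTools. Whether this t-test was used there was not given in the sources used here.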

Additional observations from a re-analysis of the deposited data

Results flagged for a closer look

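Of 92 groups of 6 arrays (46 of the named genes, both classes), 3 held an array far from the others (Dixon's test, 95% level). This number is below the 1 in 20 groups that chance flags. Neurog3 was highest at 6.87 in non angiogenic replicate 3, with the next array at 6.50. Tagln, a smooth muscle marker, was highest at 7.45 in non angiogenic replicate 1, with the next at 7.35. Cpa1, an acinar protease, was lowest at 8.66 in angiogenic replicate 2, with the next at 11.86. None of the 10 Notch genes had such an array in either class.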

How the results depend on the processing

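Jag1 and Notch3 stayed past the threshold in each alternative run. Notch2 was lost in replicates 4 to 6 alone and Notch4 in replicates 1 to 3 alone, where 3 arrays stood against 3. The 4 Notch genes past the threshold became 7 with the replicate set as a block and 7 with the replicate number as a replicate block (1058 higher genes in all), and stood between 4 and 5 when 1 array was left out. Same-numbered arrays deviated together in 5 of 6 pairs (r from 0.30 to 0.54) but not in replicate 3 (r = 0.03). With the mean of each replicate set also removed, r lay between -0.34 and 0.12. In all, 2 of 6 angiogenic arrays correlated best with their own number, so the numbers were not taken to pair the arrays. Of the wider pathway, 3 higher genes became 9 with the set block, 7 with the replicate block and 9 under the methods' t-test without adjustment, which also gave 1 lower gene. Epas1 was also lost under the methods' t-test with Benjamini-Hochberg adjustment (adjusted p = 0.0700). Over all genes, 708 higher became 1172 with the set block, 1529 under the unadjusted t-test and 467 without genes under the median level. The 189 lower became 547 with the set block, 449 with the replicate block, 1385 under the unadjusted t-test, 66 in replicates 1 to 3 alone and 110 to 178 with 1 array left out (110 without angiogenic replicate 6). The 1 gene with a set interaction became 0 with array weights. Cpa1 turned from 0.73 to -0.10 in replicates 4 to 6 alone, and Rbpj from 0.03 to -0.079 with the mean of all its clusters and to between -0.025 and 0.089 with 1 array left out. The cause of these changes was not tested. Notch2, Hey1 and Hes1 fall below the median level and were not tested where dim genes were left out.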
